A study of Mus musculus with 48 samples.

Results

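The lysosomal cathepsins are proteases that digest proteins inside lysosomes, and 7 of their genes were followed here: Ctsa, Ctsb, Ctsd, Ctsh, Ctsl, Ctss and Ctsz. They were taken by name, together with every probe set that the array's annotation gives to 1 of them, which made 16 probe sets of the 45101 in the table and 7 genes of the 18193 that the array names. The cells were mouse 32D cells, an immature myeloid line, that express the p210 BCR/ABL oncoprotein in all groups, controls included. All were transduced with the MigRI retroviral vector. WT cells carried in it the C/EBPα-ER fusion, a granulocyte transcription factor joined to the estrogen receptor so that 4-hydroxytamoxifen (4-HT) switches it on. K298E cells carried the fusion with a mutation that the labels describe as abolishing DNA binding. Δ(177-191) cells carried a deletion that the labels describe as abolishing contact with CDK2 and CDK4. Vector cells carried the empty vector and received 4-HT as well. Each line was sampled at 0, 6, 9 and 12 h after 4-HT on 3 Affymetrix MOE430_2 arrays, which gave 16 groups and 48 arrays. Each construct was represented by 1 transduced line, and no later sample without 4-HT is described. Because the protocols mention both triplicates and 3 separate experiments, the p-values measure the spread between arrays, which may be partly technical.

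Cathepsins are made as inactive precursors, carried to the lysosome by mannose 6-phosphate receptors and sortilin, and activated there in acid that the vacuolar ATPase pumps in. Most belong to the cysteine proteases (Ctsb, Ctsh, Ctsl, Ctss, Ctsz), Ctsd is an aspartic protease and Ctsa a serine carboxypeptidase. Cystatins and stefins inhibit the cysteine members, and the MiT/TFE transcription factors switch on many lysosomal genes through the CLEAR element, whose centre is an E box. Myeloid cells use cathepsins to degrade what they engulf, to process granule enzymes and to trim peptides for antigen presentation.

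The genes are scattered over the mouse genome. In assembly GRCm38.p6, Ctsa lies on chromosome 2 at 164832872 to 164841032 and Ctsz on the same chromosome at 174427494 to 174439039. Ctss lies on chromosome 3 at 95526786 to 95556405, Ctsd on chromosome 7 at 142375910 to 142387827 and Ctsh on chromosome 9 at 90054267 to 90076095. Ctsl lies on chromosome 13 at 64361890 to 64370772 and Ctsb on chromosome 14 at 63122462 to 63145923.

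RefSeq promoter windows of the same assembly, from 250 bases before to 50 bases after the annotated start, were at hand for 5 of the 7 genes. Those of the 4 tested genes among them are printed 5′ to 3′ on the strand of the gene, because these genes moved differently after 4-HT. Capitals mark each match on either strand to CACGTG (the E box), TCACGTGA (the core of the CLEAR element, which contains an E box), TTGCNNAA (a C/EBP motif) and GAGGAA (a PU.1 and ETS motif, TTCCTC on the opposite strand).
Ctsa, chr2:164833523-164833822, plus strand: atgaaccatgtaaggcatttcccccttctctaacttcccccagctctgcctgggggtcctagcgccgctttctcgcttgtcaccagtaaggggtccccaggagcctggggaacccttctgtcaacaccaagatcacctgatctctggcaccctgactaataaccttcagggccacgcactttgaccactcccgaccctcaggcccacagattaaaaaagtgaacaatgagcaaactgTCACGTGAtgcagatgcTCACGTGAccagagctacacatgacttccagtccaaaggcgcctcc
Ctsd, chr7:142387778-142388077, minus strand: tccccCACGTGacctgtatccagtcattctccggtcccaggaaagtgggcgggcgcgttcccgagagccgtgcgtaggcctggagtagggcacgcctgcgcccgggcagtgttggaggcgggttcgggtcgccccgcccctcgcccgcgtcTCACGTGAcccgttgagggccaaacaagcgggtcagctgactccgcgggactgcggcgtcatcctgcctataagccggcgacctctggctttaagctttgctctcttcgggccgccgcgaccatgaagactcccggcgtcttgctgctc
Ctss, chr3:95526536-95526835, plus strand: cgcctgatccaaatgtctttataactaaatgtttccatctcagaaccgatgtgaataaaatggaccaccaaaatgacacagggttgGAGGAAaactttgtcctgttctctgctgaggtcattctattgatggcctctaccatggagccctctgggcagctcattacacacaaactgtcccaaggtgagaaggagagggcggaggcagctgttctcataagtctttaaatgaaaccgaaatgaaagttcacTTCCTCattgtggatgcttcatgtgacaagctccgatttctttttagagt
Ctsz, chr2:174438990-174439289, minus strand: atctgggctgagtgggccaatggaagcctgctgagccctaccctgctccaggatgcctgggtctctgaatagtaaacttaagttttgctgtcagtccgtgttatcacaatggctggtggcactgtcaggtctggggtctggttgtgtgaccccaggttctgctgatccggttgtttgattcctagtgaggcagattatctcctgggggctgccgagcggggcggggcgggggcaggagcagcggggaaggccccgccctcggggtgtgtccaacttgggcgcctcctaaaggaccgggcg
Counted from +1 at the annotated start, with no position 0, the downstream of the 2 annotated Ctsa starts had the CLEAR core at -13 to -6 and again at 5 to 12. The window of the other Ctsa start held none of the 4 motifs. Ctsd had an E box at -245 to -240 and the CLEAR core at -99 to -92. Ctss had the PU.1 and ETS motif at -164 to -159 and at 1 to 6, and Ctsz had none of the 4. The window of Ctsl, which was not tested and is not printed, had an E box at -236 to -231 and the C/EBP motif at -114 to -107. With 1 window per gene, the first listed, 7.24% of 27025 windows held an E box, 1.01% the CLEAR core, 10.8% the C/EBP motif and 28.3% the PU.1 and ETS motif. For Ctsa these shares took in the window that held none of the 4 motifs, not the printed one. The matches are letters in the sequence, and binding was not measured.

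The deposited MAS5 signals lie on 1 common scale per array and were analysed as log2(signal + 3), which understates the changes of dim genes. A probe set was tested where at least 1 group mean exceeded a signal of 14, the median of the table, which 12 of the 16 cathepsin probe sets and 5 of the 7 genes did. Each gene is represented by its probe set with the highest mean, and its other probe sets are given beside it. Array medians of the signal were 11 to 19, and the ratio of 3′ to 5′ Gapdh control signals between 0.715 and 0.880. Esr1, part of which the fusions carry, had a mean signal at 0 h of 2475 for WT, 1439 for K298E and 3263 for Δ(177-191) cells, against 18.3 in vector cells. Of the markers of myeloid progenitors, Ptprc and Spi1 were bright in every line. The group means of Kit did not exceed 15.7 and those of Cd34 did not exceed 9.00. The arrays measure RNA of whole cultures, so that fewer expressing cells and less RNA per cell cannot be told apart.

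After 4-HT Ctsb and Ctsd increased in Δ(177-191) cells, and Ctss decreased in WT cells. Ctsz increased in WT and Δ(177-191) cells against their own 0 h and on 2 of its 3 probe sets also relative to vector. Ctsa decreased in vector cells, and its change from 0 h was higher in K298E and Δ(177-191) cells than in vector cells at 12 h. Each of these Ctsa calls was lost in some fits without 1 array or replicate number. The own change of Ctsa at 12 h passed the threshold in neither mutant line. The Δ(177-191) line stood above the vector line for all 5 tested genes already at 0 h. The signals of the 7 genes on every array are plotted here.

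**Figure D1:**
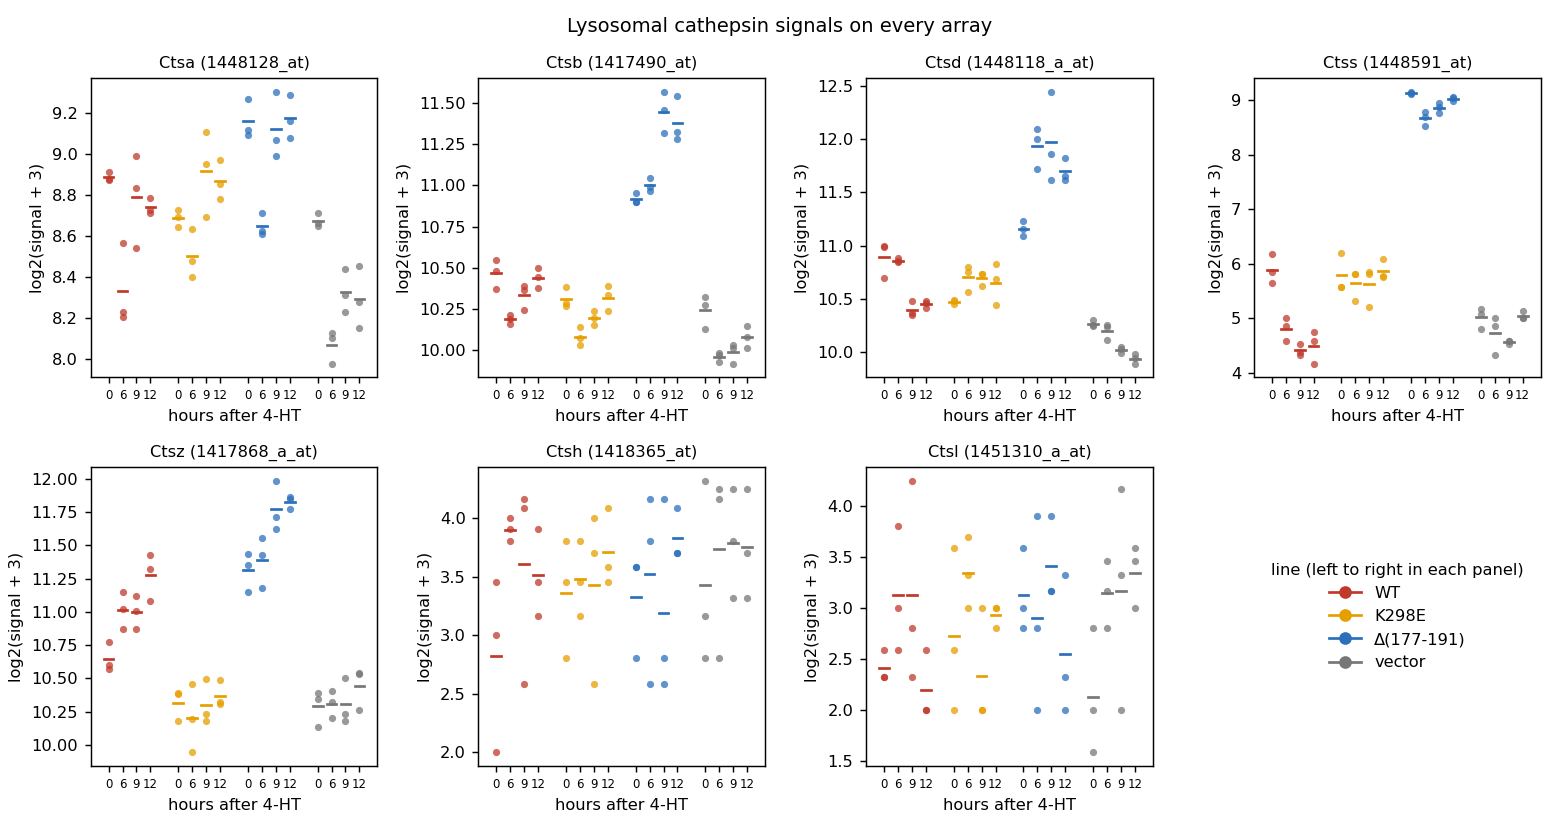
Signals of the 7 cathepsin genes as log2(signal + 3), each on its own vertical scale, against hours after 4-HT in WT, K298E, Δ(177-191) and vector cells. Points are arrays and bars are means of 3; at each time the Δ(177-191) arrays are highest in Ctsb, Ctsd, Ctss and Ctsz, and Ctsh and Ctsl stay at signals of at most 17 and 16.

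Ctsd encodes the aspartic endopeptidase that activates other lysosomal enzymes. The Ctsd signal in Δ(177-191) cells was 2399, 2272 and 2172 at 0 h, 4384, 3364 and 4088 at 6 h, 5559, 3716 and 3138 at 9 h, and 3208, 3144 and 3619 at 12 h. In vector cells it was 1222, 1261 and 1209 at 0 h, 1106, 1221 and 1203 at 6 h, 1042, 1055 and 1013 at 9 h, and 981, 1007 and 947 at 12 h. All 9 Δ(177-191) arrays after 4-HT lay above every 0 h array of that line, and 8 of the 9 vector arrays lay below every 0 h array of theirs. The relative log2 change, which is the change from 0 h in a line minus that in vector cells, was 0.85 ± 0.16 at 6 h, 1.06 ± 0.16 at 9 h and 0.87 ± 0.16 at 12 h (± SE, limma adjusted p = 0.000123, 2.26e-06 and 6.62e-05). Part of it is the vector cells' own decline of -0.33 ± 0.11 at 12 h (limma adjusted p = 0.0472), a call that was lost in each of 9 fits without 1 array or replicate number (0.0518 to 0.255). Against its own 0 h arrays Ctsd rose by 0.54 ± 0.11 in Δ(177-191) cells at 12 h (limma adjusted p = 0.000255).

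In WT cells the Ctsd signal was 1656, 2021 and 2034 at 0 h, 1836, 1844 and 1888 at 6 h, 1424, 1318 and 1303 at 9 h, and 1425, 1403 and 1365 at 12 h. In K298E cells it was 1439, 1423 and 1400 at 0 h, 1782, 1513 and 1727 at 6 h, 1698, 1701 and 1576 at 9 h, and 1640, 1815 and 1389 at 12 h. After 4-HT 6 of 9 WT arrays lay below every WT array at 0 h, and 8 of 9 K298E arrays lay above every K298E array at 0 h. Ctsd fell by 0.44 ± 0.11 in WT cells at 12 h against their own 0 h (limma adjusted p = 0.00286) while the relative change was -0.11 ± 0.16 (adjusted p = 0.867). The fall was not called without replicate 2 (0.0925) or replicate 3 (0.0668) of all groups, and with median centring (-0.24, 0.285). In K298E cells the relative change at 12 h was 0.51 ± 0.16 (limma adjusted p = 0.0673). Without array 3 of K298E at 12 h it passed the threshold (0.0269), as it did with quantile normalization (0.56, 0.00015), with array weights (0.00438), in a fit of the compared arrays alone (0.0126) and with a filter at a signal of 100 (0.0341).

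Ctsb encodes a cysteine protease that cuts within chains and also removes dipeptides from their ends. The Ctsb signal in Δ(177-191) cells was 1908, 1983 and 1907 at 0 h, 2107, 2029 and 1998 at 6 h, 3027, 2812 and 2545 at 9 h, and 2554, 2483 and 2976 at 12 h. In vector cells it was 1119, 1238 and 1277 at 0 h, 972, 1008 and 999 at 6 h, 965, 1043 and 1029 at 9 h, and 1129, 1029 and 1082 at 12 h. All 9 treated Δ(177-191) arrays lay above every 0 h array of the line, whereas 8 of 9 vector arrays lay below theirs. The relative log2 change in Δ(177-191) cells was 0.36 ± 0.10 at 6 h, 0.78 ± 0.10 at 9 h and 0.63 ± 0.10 at 12 h (± SE, limma adjusted p = 0.00839, 5.98e-08 and 5.32e-06). The 6 h call was lost without replicate 2 (0.118) or replicate 3 (0.132) and with median centring (0.454). From 0 h alone, Ctsb in Δ(177-191) cells changed by 0.08 ± 0.07 at 6 h (limma adjusted p = 0.474). At 9 and 12 h that change was 0.53 ± 0.07 and 0.46 ± 0.07 (limma adjusted p = 8.13e-08 and 1.32e-06).

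WT and K298E cells showed a dip in Ctsb at 6 h like that of vector cells. In WT cells the Ctsb signal was 1495, 1321 and 1426 at 0 h, 1185, 1167 and 1140 at 6 h, 1317, 1340 and 1212 at 9 h, and 1443, 1330 and 1390 at 12 h. In K298E cells it was 1245, 1228 and 1334 at 0 h, 1124, 1075 and 1043 at 6 h, 1204, 1168 and 1138 at 9 h, and 1203, 1336 and 1287 at 12 h. The change of Ctsb at 6 h was -0.28 ± 0.07 in WT, -0.23 ± 0.07 in K298E and -0.28 ± 0.07 in vector cells (limma adjusted p = 0.00213, 0.0292 and 0.00317). The relative changes at 12 h were 0.14 ± 0.10 in WT and 0.17 ± 0.10 in K298E cells (adjusted p = 0.61 and 0.463). A second bright Ctsb probe set, 1448732_at, gave 0.80 ± 0.11 in Δ(177-191) cells at 12 h (limma adjusted p = 5.2e-07) and the dimmer 1417492_at gave 0.85 ± 0.27 (0.0221). The dim 1417491_at and 1444987_at, with signals of 19 to 86 and 2 to 30, gave 0.37 ± 0.28 and 0.27 ± 0.57 (0.477 and 0.848).

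Ctss encodes a cysteine protease that stays active at neutral pH and, in antigen-presenting cells, trims the invariant chain of class II molecules. The Ctss signal in Δ(177-191) cells was 558, 567 and 552 at 0 h, 366, 411 and 441 at 6 h, 467, 433 and 490 at 9 h, and 529, 522 and 504 at 12 h. In WT cells it was 47, 70 and 55 at 0 h, 29, 21 and 26 at 6 h, 18, 17 and 20 at 9 h, and 15, 21 and 24 at 12 h. The Δ(177-191) arrays lay far above all others, and all 9 treated WT arrays lay below every WT array at 0 h. In K298E cells the signal was 45, 71 and 45 at 0 h, 53, 53 and 37 at 6 h, 55, 53 and 34 at 9 h, and 52, 51 and 65 at 12 h. In vector cells it was 25, 33 and 31 at 0 h, 29, 26 and 17 at 6 h, 21, 21 and 20 at 9 h, and 29, 29 and 32 at 12 h. Outside the Δ(177-191) line Ctss was thus dim, close to the filter at a signal of 14.

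The relative log2 change of Ctss in WT cells was -0.79 ± 0.26 at 6 h, -1.03 ± 0.26 at 9 h and -1.42 ± 0.26 at 12 h (± SE, limma adjusted p = 0.0711, 0.00891 and 0.000144). The 12 h call held in all 15 fits without 1 array or replicate number, and its size was -1.13 with 12 added to the signal and -0.79 with 32 added (adjusted p = 0.000214 and 0.00052). The 9 h call was lost without replicate 1 (0.0725), replicate 2 (0.252) or array 2 of WT at 0 h (0.0518), with median centring (0.177) and in a fit of the compared arrays alone (0.0989). At 6 h it was gained without replicate 3 (0.0489), array 3 of vector at 6 h (0.0154) or array 1 of WT at 0 h (0.0399), with a filter at a signal of 100 (0.0362) and with array weights (0.0408). The relative change at 12 h was 0.06 ± 0.26 in K298E and -0.13 ± 0.26 in Δ(177-191) cells (limma adjusted p = 0.965 and 0.836). All 9 treated Δ(177-191) arrays lay below the 0 h arrays of that line, but against 0 h the change at 12 h was -0.11 ± 0.18 (limma adjusted p = 0.761). Ctss is represented by 1 probe set.

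Ctsz encodes cathepsin X, a carboxypeptidase that removes single residues. In WT cells the Ctsz signal was 1515, 1548 and 1750 at 0 h, 1866, 2272 and 2080 at 6 h, 2218, 2052 and 1868 at 9 h, and 2755, 2167 and 2561 at 12 h. In Δ(177-191) cells it was 2611, 2266 and 2766 at 0 h, 2755, 2317 and 3002 at 6 h, 3153, 4054 and 3359 at 9 h, and 3693, 3493 and 3721 at 12 h. All 9 treated WT arrays and 7 of 9 treated Δ(177-191) arrays lay above every 0 h array of their line. In K298E cells it was 1338, 1335 and 1157 at 0 h, 1404, 982 and 1170 at 6 h, 1155, 1439 and 1202 at 9 h, and 1278, 1431 and 1263 at 12 h. In vector cells it was 1122, 1341 and 1297 at 0 h, 1350, 1175 and 1279 at 6 h, 1158, 1449 and 1200 at 9 h, and 1223, 1477 and 1490 at 12 h. These lines showed no such shift, with 3 of 9 K298E arrays and 4 of 9 vector arrays above their own 0 h arrays.

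Against 0 h Ctsz rose by 0.63 ± 0.12 in WT and by 0.52 ± 0.12 in Δ(177-191) cells at 12 h (log2, ± SE, limma adjusted p = 5.61e-05 and 0.000829). Relative to vector the change at 12 h on this probe set was 0.48 ± 0.17 in WT and 0.36 ± 0.17 in Δ(177-191) cells (adjusted p = 0.106 and 0.16), neither past the threshold. The WT change passed it with quantile normalization (0.56, 0.0333), with array weights (0.0225) and in a fit of the compared arrays alone (0.0447). The other Ctsz probe sets passed it in both lines. On 1417869_s_at the WT signal was 781, 786 and 878 at 12 h, against 415, 412 and 493 at 0 h, and the relative change was 0.95 ± 0.18 (limma adjusted p = 0.000183). On 1417870_x_at it was 1774, 1744 and 1714 at 12 h, against 1189, 1271 and 1155 at 0 h, and the relative change was 0.44 ± 0.12 (limma adjusted p = 0.0245). These probe sets gave 0.66 ± 0.18 and 0.45 ± 0.12 in Δ(177-191) cells at 12 h (limma adjusted p = 0.00499 and 0.00745). The endings _s_at and _x_at mark probe sets whose probes can match other transcripts. In K298E cells the 3 probe sets gave -0.10 ± 0.17, -0.03 ± 0.18 and -0.14 ± 0.12 (limma adjusted p = 0.881, 0.979 and 0.705). The course of the 3 probe sets is plotted against each line's own 0 h mean.

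**Figure D2:**
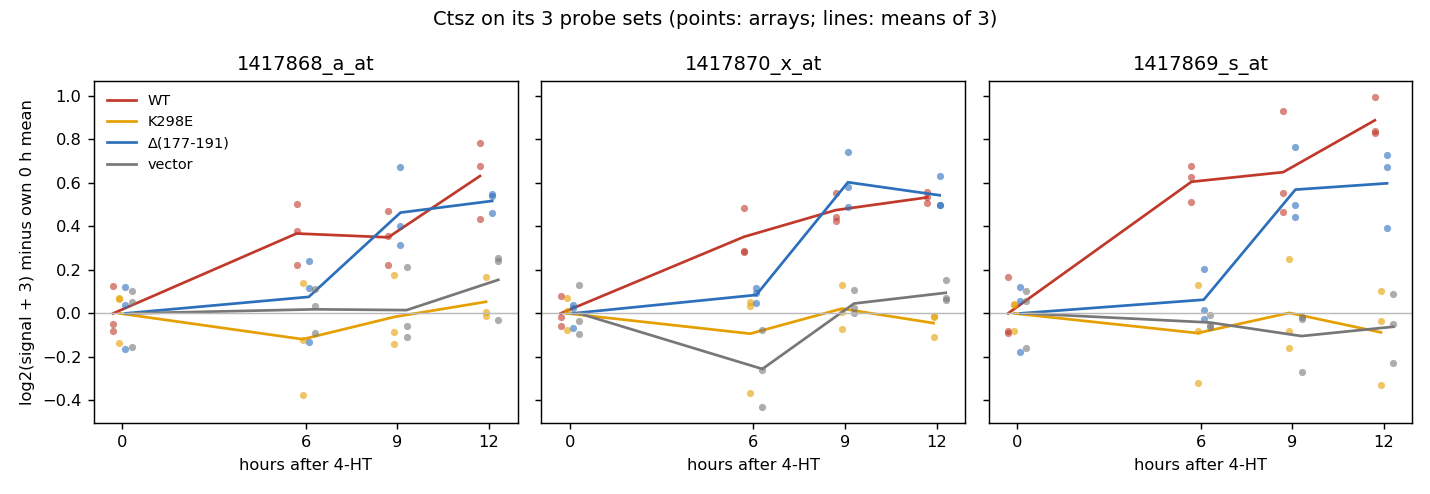
Ctsz on its 3 probe sets as log2(signal + 3) minus the mean at 0 h of the same line, against hours after 4-HT, with points for arrays and lines for means of 3. WT and Δ(177-191) cells end above 0 on each probe set, by 0.63 and 0.52, 0.53 and 0.54, and 0.89 and 0.60, while K298E and vector cells end between -0.09 and 0.15.

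Ctsa encodes protective protein, the serine carboxypeptidase that stabilises neuraminidase and beta-galactosidase in the lysosome. In WT cells the Ctsa signal was 479, 465 and 467 at 0 h, 376, 297 and 292 at 6 h, 370, 453 and 505 at 9 h, and 438, 420 and 416 at 12 h. In K298E cells it was 397, 410 and 421 at 0 h, 335, 394 and 354 at 6 h, 549, 411 and 491 at 9 h, and 459, 437 and 499 at 12 h. WT signals dipped at 6 h, and all 3 K298E arrays at 12 h lay above those at 0 h. In Δ(177-191) cells it was 543, 613 and 552 at 0 h, 417, 391 and 388 at 6 h, 628, 533 and 506 at 9 h, and 621, 538 and 569 at 12 h. In vector cells it was 416, 402 and 398 at 0 h, 249, 277 and 272 at 6 h, 344, 315 and 297 at 9 h, and 347, 281 and 307 at 12 h. All 9 vector arrays after 4-HT lay below every vector array at 0 h.

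The change of Ctsa at 6 h was -0.55 ± 0.10 in WT, -0.51 ± 0.10 in Δ(177-191) and -0.60 ± 0.10 in vector cells (log2, ± SE, limma adjusted p = 2.73e-05, 9.72e-05 and 1.52e-05). In K298E cells it was -0.18 ± 0.10 (limma adjusted p = 0.323), with all 3 arrays at 6 h below every K298E array at 0 h. In vector cells the change at 12 h was still -0.38 ± 0.10 (limma adjusted p = 0.00635). That call was lost without replicate 2 (0.177), replicate 3 (0.0988) or array 2 of vector at 12 h (0.0648), and with median centring (0.176). Relative to vector, Ctsa was higher in K298E cells by 0.58 ± 0.14 at 9 h and 0.56 ± 0.14 at 12 h (limma adjusted p = 0.0111 and 0.0131). Against its own 0 h arrays Ctsa changed in K298E cells by 0.18 ± 0.10 at 12 h (adjusted p = 0.564). The 12 h call was lost without replicate 2 (0.202), replicate 3 (0.238) or array 2 of vector at 12 h (0.0548), and with median centring (0.457). The 9 h call was lost without replicate 2 (0.0737), replicate 3 (0.243) or array 1 of K298E at 9 h (0.0584), and with median centring (0.409). In Δ(177-191) cells the change from their own 0 h arrays at 12 h was 0.02 ± 0.10 (limma adjusted p = 0.946). The relative change there at 12 h was 0.40 ± 0.14 (limma adjusted p = 0.0475). It passed the threshold in 3 of 15 fits without 1 array or replicate number (0.0211 to 0.262), and failed without any array of vector at 0 h. It failed as well with median centring, quantile normalization, no filter or no variance trend (0.329, 0.0644, 0.0794 and 0.071). In WT cells it was 0.23 ± 0.14 (adjusted p = 0.497). The second Ctsa probe set, 1458466_at, was dim at 17 to 48 and gave no call in any comparison named here.

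Ctsh, an aminopeptidase, and Ctsl, a cysteine endopeptidase that also processes the invariant chain, were not tested. The highest group means of the Ctsh probe sets were 12 and 14 and those of the Ctsl probe sets 8 and 6.67. Their highest single signals were 17 and 24 for Ctsh and 16 and 11 for Ctsl. These signals lie at the dim end of the table, where a low level and none cannot be separated without detection calls.

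Of the 5 tested genes, 0 were higher and 1 lower in WT cells relative to vector at 12 h (Ctss), where 7.18% of 12800 genes passed the threshold in either direction. In K298E cells 1 was higher and 0 lower (Ctsa), against 5.60% of all genes. As for Δ(177-191) cells, 3 were higher and 0 lower (Ctsa, Ctsb, Ctsd), against 22.3% of all genes. The median relative change of the 5 genes was 0.14 for WT, 0.17 for K298E and 0.40 for Δ(177-191) cells, beside -0.03, 0.02 and -0.04 over all genes tested. At 6 h the counts were 0, 0 and 2 higher with 0 lower (6.23%, 1.29% and 18.2% of all genes). At 9 h 1 was lower in WT, 1 higher in K298E and 2 higher in Δ(177-191) cells (6.09%, 5.15% and 22.3%). The 3 lines share the vector arrays in these comparisons. In vector cells themselves 2 of 5 were lower at 12 h (Ctsa, Ctsd), where 17.4% of all genes passed. Against their own 0 h arrays at 12 h, 1 was higher and 2 lower in WT, 0 passed in K298E, and 3 were higher and 0 lower in Δ(177-191) cells (30.9%, 2.32% and 30.4% of all genes). At 6 h it was 1 higher and 3 lower in WT, 0 and 1 in K298E, 1 and 1 in Δ(177-191), and 0 and 2 in vector cells (32.4%, 12.4%, 30.5% and 20.4%).

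**Figure D3:**
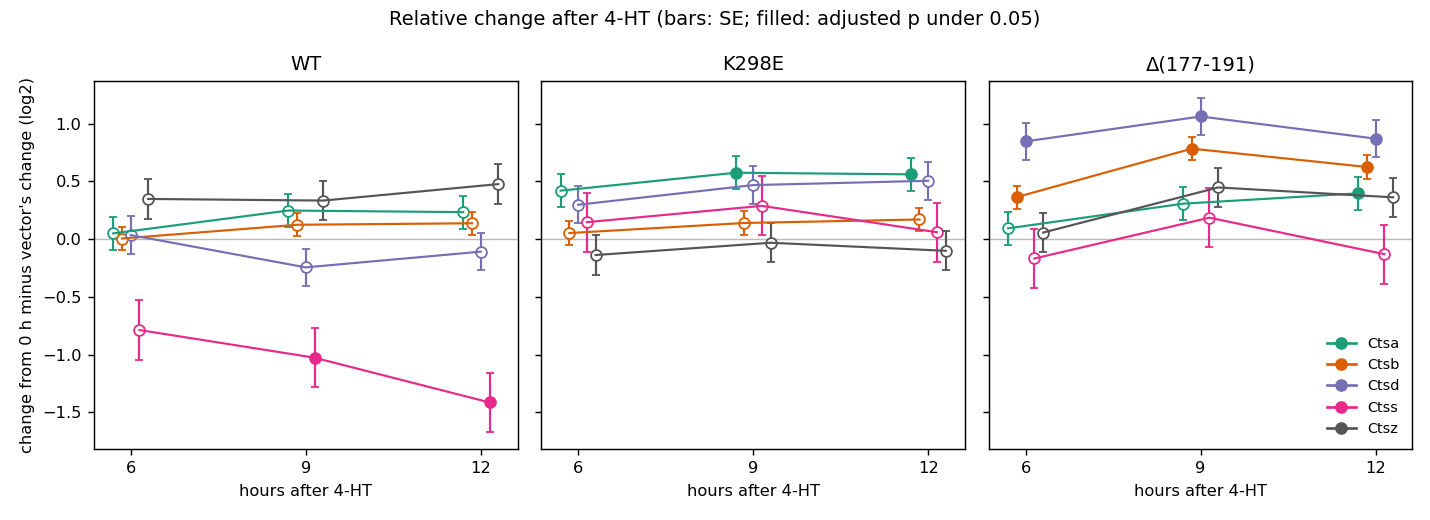
Relative change of the 5 tested cathepsin genes, as the log2 change from 0 h in a line minus that in vector cells, at 6, 9 and 12 h in WT, K298E and Δ(177-191) cells. Bars are standard errors and filled points passed an adjusted p of 0.05; Ctss descends to -1.42 in WT cells, and Ctsb and Ctsd are at 0.63 and 0.87 in Δ(177-191) cells at 12 h.

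A direct comparison of WT with each mutant, on the change averaged over 6, 9 and 12 h, needs no vector arrays. Ctss, Ctsd and Ctsa moved lower in WT than in K298E cells, by -1.24 ± 0.21, -0.53 ± 0.13 and -0.34 ± 0.12, and Ctsz moved higher, by 0.48 ± 0.14 (log2, ± SE, limma adjusted p = 2.32e-05, 0.00382, 0.0417 and 0.0147). That is 1 of 5 genes higher and 3 lower, where 17.5% of all genes passed the threshold, and the median of the 5 was -0.34 beside -0.04 over all genes. The difference in Ctsb was -0.03 ± 0.08 (adjusted p = 0.872). On the other Ctsz probe sets the difference was 0.77 ± 0.14 and 0.49 ± 0.10 (limma adjusted p = 9.68e-05 and 0.000442). The Ctsd call was lost without replicate 2 (0.147) or replicate 3 (0.0601) and with median centring (-0.39, adjusted p = 0.181). The Ctsz call was lost without replicates 1, 2 or 3 (0.12, 0.0621 and 0.0603), array 1 of WT at 0 h (0.0562) or arrays 1 and 2 of K298E at 0 h, each in turn (0.053 and 0.0528), and with median centring (0.0747). The Ctsa call failed in 18 of 27 such fits (0.0142 to 0.206 over all), among them those without any array of either line at 0 h. It failed too with median centring (-0.20, adjusted p = 0.581), no filter (0.0692), no variance trend (0.0639) and the compared arrays alone (0.0748).

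Between WT and Δ(177-191) the mean change was lower in WT for Ctsb by -0.50 ± 0.08, for Ctsd by -1.03 ± 0.13 and for Ctss by -1.04 ± 0.21 (log2, ± SE, limma adjusted p = 6.32e-06, 5.93e-08 and 0.000183). So 0 of 5 genes were higher and 3 lower, where 25.3% of all genes passed, with a median of -0.50 beside -0.03 over all genes. Each of these calls held in all 27 fits without 1 array or replicate number, and that of Ctsb was lost with median centring (-0.30, adjusted p = 0.238). Ctsa and Ctsz differed by -0.09 ± 0.12 and 0.10 ± 0.14 (limma adjusted p = 0.681 and 0.712).

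The lines also differed before 4-HT. At 0 h all 5 tested genes were higher in Δ(177-191) than in vector cells, where 28.5% of all genes passed the threshold, with a median of 0.89 beside -0.01 over all genes. Ctss stood out with a mean signal of 559 ± 7.55 in Δ(177-191) cells, against 29.7 ± 4.16 in vector cells (SD, n = 3), 17.3-fold on the log2(signal + 3) scale (4.11 ± 0.18, limma adjusted p = 3.25e-22). Ctsz was higher by 1.02 ± 0.12, Ctsd by 0.89 ± 0.11, Ctsb by 0.67 ± 0.07 and Ctsa by 0.49 ± 0.10 (limma adjusted p = 4.12e-09, 3.55e-08, 2.07e-10 and 0.000201). These calls held in all 9 fits without 1 array or replicate number.

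In WT cells at 0 h Ctsd (0.62 ± 0.11) and Ctss (0.88 ± 0.18) were higher than in vector cells (limma adjusted p = 0.000296 and 0.00149), 2 of 5 genes where 5.71% of all genes passed. Both calls were lost without replicate 2 (0.0621 and 0.112) and with median centring (0.0879 and 0.103). Other probe sets passed in WT cells at 0 h for Ctsz, 1417870_x_at by 0.49, and Ctsb, 1448732_at by 0.31 (limma adjusted p = 0.000192 and 0.0156). The representative probe sets of Ctsz and Ctsb did not (0.0895 and 0.0638). In K298E cells 1 of 5 was higher, Ctss by 0.77 ± 0.18 (limma adjusted p = 0.00584), where 6.45% of all genes passed. That call was lost without replicate 1 (0.0544), replicate 2 (0.25), array 1 of vector at 0 h (0.0572) or array 2 of K298E at 0 h (0.107), with median centring (0.137) and in a fit of the compared arrays alone (0.0631).

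At 12 h all 5 genes were higher in Δ(177-191) than in vector cells, where 43.0% of all genes passed. Their differences ran from 0.88 ± 0.10 for Ctsa to 3.98 ± 0.18 for Ctss, with 1.30 ± 0.07 for Ctsb, 1.38 ± 0.12 for Ctsz and 1.76 ± 0.11 for Ctsd (log2, ± SE, limma adjusted p = 7.84e-10, 3.06e-22, 1.37e-19, 4.52e-13 and 5.65e-17). In WT cells 4 were higher and 1 lower, where 16.5% of all genes passed: Ctsz by 0.83 ± 0.12, Ctsd by 0.51 ± 0.11, Ctsa by 0.45 ± 0.10, Ctsb by 0.36 ± 0.07 and Ctss by -0.54 ± 0.18. Their limma adjusted p was 7.61e-07, 0.00097, 0.00105, 0.000164 and 0.0409. The Ctss call failed in 8 of 9 fits without 1 array or replicate number (0.0222 to 0.364 over all), the exception being that without array 3 of WT at 12 h. That of Ctsa failed without replicate 2 (0.0833) and that of Ctsb with median centring (0.0909). In K298E cells 4 were higher and 0 lower, where 9.22% of all genes passed: Ctss by 0.83 ± 0.18, Ctsd by 0.71 ± 0.11, Ctsa by 0.58 ± 0.10 and Ctsb by 0.24 ± 0.07 (limma adjusted p = 0.00151, 1.63e-05, 6.77e-05 and 0.0287). Ctsz differed there by -0.07 ± 0.12 (0.862). The Ctsb call in K298E failed in 6 of 9 such fits (0.0252 to 0.552 over all), without arrays 2 or 3 of either line at 12 h or replicates 2 or 3. Median centring left 1 of the 4 K298E calls, that of Ctsd.

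**Figure D4:**
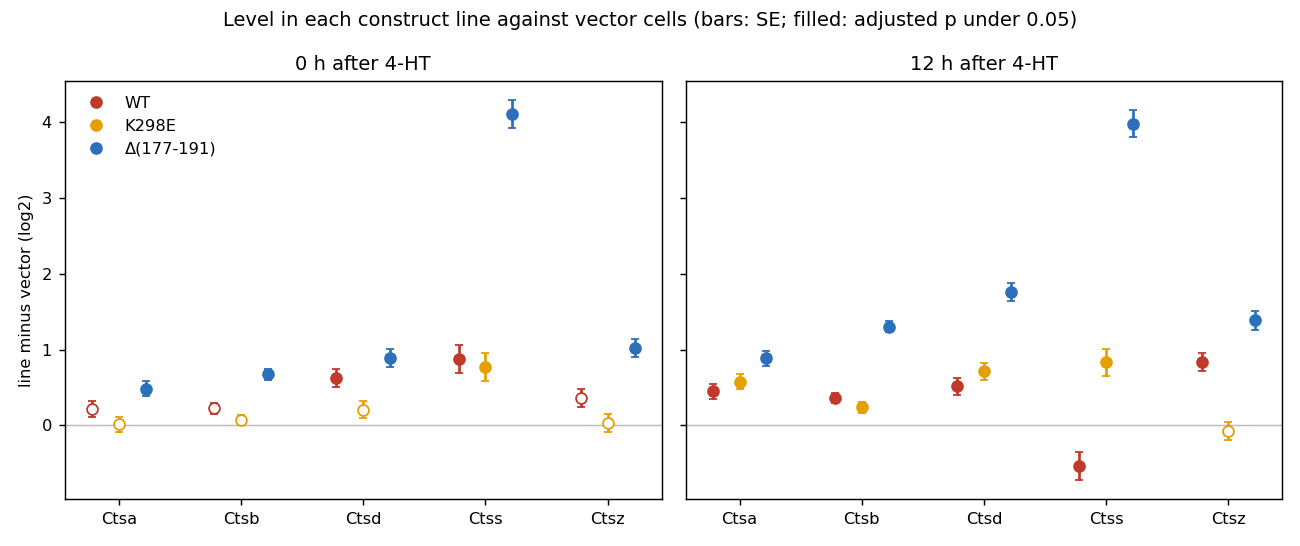
Log2 difference of WT, K298E and Δ(177-191) cells from vector cells at 0 h and at 12 h after 4-HT for the 5 tested cathepsin genes, with standard errors; filled points passed an adjusted p of 0.05. Ctss in Δ(177-191) cells is at 4.11 and 3.98, and in WT cells at 0.88 at 0 h and -0.54 at 12 h.

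Cell type markers differed between the lines as well, in part already at 0 h, and their part in the cathepsin results was not tested. The summed signals of 13 granulocyte markers at 12 h were 5028 to 5206 for WT, 1523 to 2531 for K298E and 8375 to 10614 for Δ(177-191) cells, against 469 to 500 in vector cells. At 0 h they were 1623 to 1691, 1137 to 1211 and 5584 to 5958, against 960 to 1077. The sums rested on part of the list. At 12 h 4 of the 13 had a group mean over 100 in WT, 2 in K298E, 7 in Δ(177-191) and 2 in vector cells. Those with a mean under 14 were 6, 4, 3 and 7, against 3, 3, 4 and 5 at 0 h. The summed signals of 12 macrophage and monocyte markers at 12 h were 1098 to 1194 for WT, 1295 to 1447 for K298E and 2259 to 2802 for Δ(177-191) cells, against 580 to 655 in vector cells. At 0 h they were 973 to 1088, 1149 to 1210 and 1322 to 1421, against 672 to 755. Of these markers, 1 had a group mean over 100 at 0 or 12 h, Adgre1. Group means under 14 at 12 h were those of 10 markers in WT, 10 in K298E, 7 in Δ(177-191) and 10 in vector cells, against 10, 9, 8 and 10 at 0 h. The summed signals of 8 mast cell markers at 12 h were 601 to 677 for WT, 238 to 299 for K298E and 59 to 71 for Δ(177-191) cells, against 472 to 544 in vector cells. At 0 h they were 437 to 515, 235 to 269 and 81 to 89, against 583 to 641. At 12 h 7 of the 8 had a group mean under 14 in each line. No erythroid, lymphoid or fibroblast marker had a group mean over 100 at 0 or 12 h.

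Across the 16 group means of log2(signal + 3) the 5 tested genes had Pearson correlations of 0.58 (Ctsa and Ctsz) to 0.90 (Ctsb and Ctsd, Ctsb and Ctss). The points share the arrays and the offset of the Δ(177-191) line. Among 7354 genes with a group mean above 100, the patterns most like Ctsb were those of Sat1 (r = 0.99) and Tmem243 (0.98). For Ctsd they were Sh3bgrl3 (0.98) and Pik3ap1 (0.97), and for Ctsz they were Cd44 (0.96) and Stard5 (0.96). Ctss was most like Psap, the precursor of the saposins that help lysosomal lipid breakdown (0.99), and Traf3ip2 (0.97). Ctsa was most like Phkg2 (0.96) and Necap2 (0.93). Of all 7354 genes, 249 correlated above 0.9 with Ctsb, 172 with Ctss, 135 with Ctsd and 110 with Ctsz, but 7 with Ctsa. By Spearman's rho the most alike were Myl12b for Ctsb, Pik3ap1 for Ctsd, Rhoa for Ctsz, Psap for Ctss and Phkg2 for Ctsa.

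Psap was picked for this likeness, so its values are a description. Its mean signal in WT cells was 1120 ± 59.3 at 12 h, against 1608 ± 130 at 0 h (SD, n = 3), and in vector cells 1158 ± 75.6, against 1215 ± 50.1.

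The values of the lysosomal lists that follow are relative changes at 12 h unless stated, so that higher or lower means relative to vector cells. Where the vector cells' own change passed the threshold it is given beside them. For each count of a list, the share over all genes tested was 3.81% higher and 3.37% lower in WT cells. It was 3.37% and 2.23% in K298E, and 9.94% and 12.4% in Δ(177-191) cells. Of 12 cystatins and stefins listed, 8 are on the array and 5 were tested, of which 2 were higher and 0 lower in Δ(177-191) cells relative to vector at 12 h. Neither WT nor K298E cells had any that passed (0 of 5). Cst7, cystatin F, which controls cathepsins in immune cell granules, had a mean signal in Δ(177-191) cells of 487 ± 63.6 at 12 h, against 43.7 ± 4.16 at 0 h, and in vector cells 62.0 ± 6.00, against 89.3 ± 6.03 (SD, n = 3). Its relative change was 3.90 ± 0.29 (limma adjusted p = 7.99e-14). Cstb, stefin B, was higher by 1.03 ± 0.13 (limma adjusted p = 3.17e-08), with an own change of 0.64 ± 0.09 in Δ(177-191) and -0.40 ± 0.09 in vector cells (3e-07 and 0.00143). The relative changes of Cst3, cystatin C, Stfa2l1 and Stfa3 were 0.21 ± 0.11, 0.57 ± 0.47 and -0.34 ± 0.61 (limma adjusted p = 0.231, 0.523 and 0.818). In WT cells the relative changes were 0.77 ± 0.29 for Cst7, 0.01 ± 0.13 for Cstb and 0.32 ± 0.11 for Cst3 (limma adjusted p = 0.15, 0.994 and 0.0979), and in K298E cells 0.42 ± 0.29, 0.41 ± 0.13 and 0.33 ± 0.11 (0.572, 0.0571 and 0.0966). The mean change differed between WT and Δ(177-191) by -1.88 ± 0.24 for Cst7 and -0.77 ± 0.10 for Cstb (limma adjusted p = 5.31e-08 and 1.76e-07).

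Before 4-HT 4 of these 5 inhibitors were higher and 1 lower in Δ(177-191) than in vector cells, where 28.5% of all genes passed the threshold. Stfa2l1, a stefin, was higher by 7.15 ± 0.33 and Stfa3 by 3.34 ± 0.43 (log2, ± SE, limma adjusted p = 1.51e-21 and 4.08e-08). Mouse stefins form a family of near-identical genes, so these signals may be shared among copies. Cst3 was higher by 1.56 ± 0.08 and Cstb by 0.35 ± 0.09, while Cst7 was lower by -0.99 ± 0.21 (limma adjusted p = 5.93e-20, 0.00317 and 0.000253). The other lines differed from vector cells at 0 h as well. In K298E cells Stfa2l1 was higher by 1.39 ± 0.33 and Cst7 lower by -1.79 ± 0.21 (limma adjusted p = 0.00628 and 5.1e-08). In WT cells Stfa2l1 was higher by 1.12 ± 0.33 and Cst3 by 0.31 ± 0.08 (limma adjusted p = 0.0411 and 0.0152).

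Of 14 further cysteine cathepsins 4 were tested, and 0 passed relative to vector at 12 h in WT, K298E or Δ(177-191) cells. The mean change of Ctsc, the dipeptidyl peptidase that activates granule serine proteases, was lower in WT than in Δ(177-191) cells by -0.66 ± 0.14, and that of Ctso by -0.62 ± 0.12 (limma adjusted p = 0.000397 and 0.00015). The mean change of Ctso was lower in WT than in K298E cells as well, by -0.71 ± 0.12 (limma adjusted p = 3.4e-05). Its own change in vector cells at 12 h was -0.42 ± 0.11 (limma adjusted p = 0.00417). Of Ctse, Ctsg, Lgmn and Napsa, 1 was higher and 2 lower in WT cells relative to vector at 12 h. Ctsg, the serine protease cathepsin G of primary granules, was higher by 2.41 ± 0.59 (limma adjusted p = 0.00663). Its mean signal was 143 at 12 h, against 31.0 at 0 h, in WT cells. Lgmn, the asparaginyl endopeptidase that processes several cathepsins, passed as lower in WT and Δ(177-191) cells, with mean signals of 3 and 2.33 at 12 h, against 27.7 and 30.7 at 0 h. The 12 h signals lie below the filter at 14, where the size of a change depends on the added constant, so none is given. Napsa, an aspartic protease, changed by -0.75 ± 0.17 and -0.77 ± 0.17 in these lines (limma adjusted p = 0.00344 and 0.000894). Ctse, an aspartic protease of endosomes, was higher by 0.62 ± 0.12 in Δ(177-191) cells and differed by -0.61 ± 0.12 in K298E cells (limma adjusted p = 0.000175 and 0.00123). The own change of Ctse was 1.02 ± 0.09 in Δ(177-191) and -0.22 ± 0.09 in K298E cells, and 0.39 ± 0.09 in vector cells (limma adjusted p = 1.25e-12, 0.282 and 0.00104).

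Among the lysosomal partners of Ctsa, Neu1, the neuraminidase, was higher by 0.90 ± 0.15 in WT and by 1.58 ± 0.15 in Δ(177-191) cells relative to vector at 12 h (log2, ± SE, limma adjusted p = 5.24e-05 and 7.71e-11), and changed by 0.49 ± 0.15 in K298E cells (0.0625). The own change of Neu1 in vector cells was -0.38 ± 0.11 (limma adjusted p = 0.0113). Glb1, the beta-galactosidase, was higher by 0.78 ± 0.18 in K298E cells (limma adjusted p = 0.00624) and changed by 0.22 ± 0.18 in WT and 0.06 ± 0.18 in Δ(177-191) cells (0.687 and 0.91). The own change of Glb1 was -0.02 ± 0.13 in K298E cells and -0.80 ± 0.13 in vector cells (limma adjusted p = 0.982 and 1.03e-05). Glb1 was named after its values were seen, because it forms a complex with Ctsa and Neu1.

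Of 34 lysosomal hydrolases tested, 3 were higher and 2 lower in WT cells, 9 higher and 0 lower in K298E cells, and 5 higher and 7 lower in Δ(177-191) cells relative to vector at 12 h. Their medians were -0.01, 0.29 and -0.07, beside -0.03, 0.02 and -0.04 over all genes. Arsb, an arylsulfatase, and Gla, the alpha-galactosidase, were higher in WT cells by 1.47 ± 0.15 and 1.07 ± 0.11, and Gm2a, the ganglioside activator, differed by -0.81 ± 0.11 (limma adjusted p = 1.16e-09, 7.76e-10 and 1.46e-06). In vector cells the own changes of Gla and Gm2a were -0.25 ± 0.08 and -0.56 ± 0.08 (limma adjusted p = 0.0235 and 1.57e-06). In K298E cells Lyz2, a lysozyme, was higher by 1.15 ± 0.18 and Idua, the iduronidase, by 1.09 ± 0.26 (limma adjusted p = 4.13e-05 and 0.0073). In Δ(177-191) cells Scpep1, a serine carboxypeptidase, was higher by 0.98 ± 0.14, and the lysozymes Lyz1 and Lyz2 changed by -2.28 ± 0.30 and -2.0 ± 0.18 (limma adjusted p = 8.09e-07, 1.56e-07 and 2.24e-11). The own change of Scpep1 was 0.33 ± 0.10 in Δ(177-191) and -0.65 ± 0.10 in vector cells, and that of Lyz2 in vector cells -0.48 ± 0.13 (limma adjusted p = 0.0113, 4.51e-06 and 0.00817). At 0 h Lyz1 and Lyz2 were higher in Δ(177-191) than in vector cells by 4.85 ± 0.21 and 4.38 ± 0.13 (limma adjusted p = 3.55e-22 and 4.62e-28). Lyz1 and Lyz2 are near-identical genes, and their signals may be shared.

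Of 22 lysosomal membrane genes tested, 2 were higher and 0 lower in WT, 4 higher and 0 lower in K298E, and 9 higher and 2 lower in Δ(177-191) cells at 12 h, with medians of -0.06, 0.18 and 0.21. Tmem192, a lysosomal membrane protein, was higher by 0.68 ± 0.12 in WT and by 1.32 ± 0.12 in Δ(177-191) cells (limma adjusted p = 0.000161 and 2.99e-11). The own change of Tmem192 was 0.13 ± 0.09 in WT and 0.78 ± 0.09 in Δ(177-191) cells, and -0.55 ± 0.09 in vector cells (limma adjusted p = 0.321, 1.36e-09 and 9.05e-06). Lamp2, a major lysosomal membrane glycoprotein, was higher by 0.43 ± 0.13 in WT cells (limma adjusted p = 0.045). Cd68, the macrosialin of phagocytes, was higher by 1.24 ± 0.11 in K298E cells (limma adjusted p = 2.14e-10), where its own change was 0.21 ± 0.08, against -1.03 ± 0.08 in vector cells (0.243 and 3.54e-13). Slc11a1, the phagosomal metal transporter, was higher by 1.66 ± 0.32 in Δ(177-191) cells, while the transporter Abca2 differed by -1.54 ± 0.24 (limma adjusted p = 0.000116 and 2.39e-06).

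Of 19 subunits of the vacuolar ATPase, 5 were higher for WT, 1 for K298E and 6 for Δ(177-191) cells, with 0 lower in the 3 lines and medians of 0.16, 0.07 and 0.27. Atp6v0a1, a subunit of the membrane sector, was higher by 1.08 ± 0.17 for WT, 1.0 ± 0.17 for K298E and 1.28 ± 0.17 for Δ(177-191) cells (log2, ± SE, limma adjusted p = 1.95e-05, 0.000164 and 2.46e-07). Atp6v0b was higher by 0.62 ± 0.13 in WT and Atp6v1e1 by 1.07 ± 0.15 in Δ(177-191) cells (limma adjusted p = 0.000868 and 5.48e-07).

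Of 18 genes that sort hydrolases to the lysosome, 1 was higher in WT, 0 passed in K298E, and 3 were higher and 3 lower in Δ(177-191) cells, with medians of 0.03, -0.05 and -0.12. Sort1, sortilin, a carrier of lysosomal enzymes, had a mean signal at 12 h of 343 ± 19.5 for WT, 172 ± 11 for K298E and 545 ± 6.66 for Δ(177-191) cells, against 197 ± 11.4 in vector cells (SD, n = 3). Its relative change was 0.60 ± 0.13 in WT and 1.56 ± 0.13 in Δ(177-191) cells (limma adjusted p = 0.00142 and 1.11e-12), and -0.11 ± 0.13 in K298E cells (0.791). The adaptors Gga2 and Gga3 changed in Δ(177-191) cells by -0.69 ± 0.11 and -0.71 ± 0.17 (limma adjusted p = 9.66e-06 and 0.00229). At 0 h M6pr, a mannose 6-phosphate receptor, was higher in Δ(177-191) than in vector cells by 0.79 ± 0.06 (limma adjusted p = 1.54e-13).

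Of 10 MiT/TFE factors and their regulators tested, 1 was higher and 0 lower in WT, 0 higher and 1 lower in K298E, and 1 higher and 2 lower in Δ(177-191) cells at 12 h, with medians of 0.09, -0.08 and 0.01. Tfec had a mean signal at 12 h of 1389 ± 65.6 for WT, 304 ± 32.7 for K298E and 98.3 ± 31.8 for Δ(177-191) cells, against 447 ± 4.62 in vector cells (SD, n = 3). Its relative change was 2.39 ± 0.17 in WT and -0.60 ± 0.17 in K298E cells (limma adjusted p = 2.5e-14 and 0.0264), and 0.17 ± 0.17 in Δ(177-191) cells (0.619). In vector cells the own change of Tfec was 0.42 ± 0.12, and in K298E cells -0.18 ± 0.12 (limma adjusted p = 0.0111 and 0.654). Tfe3 was higher by 0.64 ± 0.18 in Δ(177-191) cells (limma adjusted p = 0.00836).

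Of 7 partners of cathepsins in antigen presentation tested, 0 passed in WT cells, while both mutant lines had 2 higher and 0 lower at 12 h, with medians of 0.02, 0.47 and -0.01. Cd74, the invariant chain that Ctss trims in antigen-presenting cells, was higher by 1.21 ± 0.16 in K298E and by 0.82 ± 0.16 in Δ(177-191) cells (limma adjusted p = 8.37e-07 and 0.000114). The own change of Cd74 was 0.55 ± 0.11 in K298E and 0.16 ± 0.11 in Δ(177-191) cells, and -0.67 ± 0.11 in vector cells (limma adjusted p = 0.00277, 0.371 and 2.09e-05). H2-Oa, a chain of a peptide-loading regulator, was higher by 1.47 ± 0.16 and 2.20 ± 0.16 in these lines (limma adjusted p = 2.33e-08 and 4.28e-14). Its own change was -0.19 ± 0.12 in K298E and 0.54 ± 0.12 in Δ(177-191) cells, and -1.67 ± 0.12 in vector cells (limma adjusted p = 0.607, 0.000291 and 1.84e-14). The mean change of Cd74 was lower in WT than in K298E and in Δ(177-191) cells, by -0.98 ± 0.13 and -0.84 ± 0.13 (limma adjusted p = 2.65e-07 and 2.63e-06). The counts of all 9 lists are drawn by line.

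**Figure D5:**
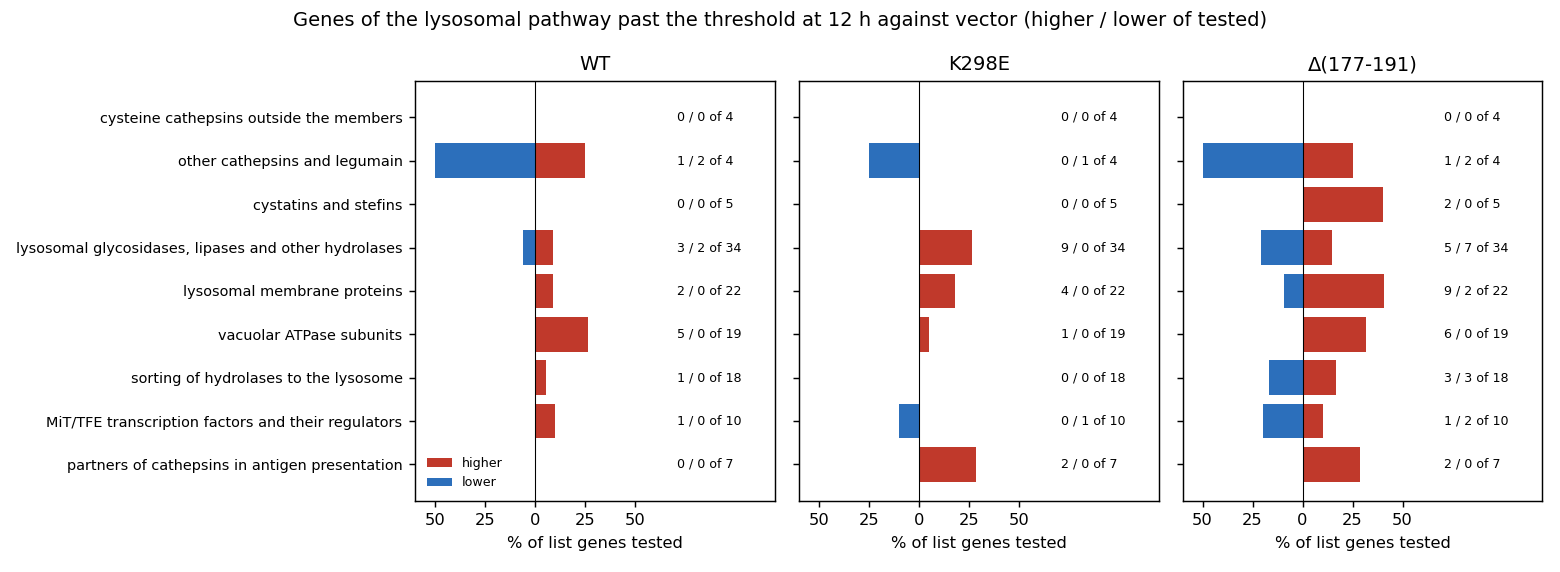
Share of the tested genes of 9 lysosomal lists that were higher (red, to the right) or lower (blue, to the left) than in vector cells by relative change at 12 h, in WT, K298E and Δ(177-191) cells, with the counts beside the bars. The share over all genes tested was 3.81% higher and 3.37% lower in WT, 3.37% and 2.23% in K298E, and 9.94% and 12.4% in Δ(177-191) cells.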

How the data were processed

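RNA of the cells was hybridised to 48 Affymetrix MOE430_2 arrays, with 3 arrays in each of 16 groups. The authors deposited intensities on a linear scale, made with MAS5, per the submitters' processing notes; its version and scaling settings are not given in the sources used here. The trimmed mean of the values was 100 on every array. No detection calls entered the analysis. The table holds 45101 probe sets, and 64 controls were left out. The platform annotation gives 1 symbol to 34945 of the others, several to 932 and none to 9160. Symbols were updated through a RefSeq table of GRCm38.p6.

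Signals were taken as log2(signal + 3), 3 being their 20th percentile. A probe set was tested if 1 group mean exceeded the median log2 value of 4.09, which left 27167 probe sets and 12800 genes. A linear model over the 16 groups was run with limma 3.58.1 under R 4.3.3, with 32 residual degrees of freedom and a variance trend. The threshold was a two-sided Benjamini-Hochberg adjusted p under 0.05 across all tested probe sets. Counts of genes use the probe set with the highest mean. The fit was tested on simulated data.

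The 7 genes, the 9 pathway lists of 123 tested genes, the 7 lists of cell type markers and the tests were chosen with earlier results of these data known. Named beside the cathepsins are up to 2 rises and 2 falls of a list past the threshold, all tested cystatins and stefins, the 2 genes with the most similar pattern, and Esr1. The alternatives were other added constants, filters, scalings, variance models, samples in the fit, a replicate block, left-out arrays and replicate numbers, and other probe sets. Array signals carry no counting depth, so the number of arrays limits the precision.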

Additional observations from a re-analysis of the deposited data

Results flagged for a closer look

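For 12 results the model's interaction term, which tests whether 2 lines changed differently from 0 h, passed the threshold. Relative to vector cells at 12 h these were Ctss in WT cells (-1.42), Ctsa in K298E cells (0.56), and Ctsa (0.40), Ctsb (0.63) and Ctsd (0.87) in Δ(177-191) cells, all as log2 differences. Between WT and K298E cells the mean change over 6, 9 and 12 h differed for Ctsa (-0.34), Ctsd (-0.53), Ctss (-1.24) and Ctsz (0.48). Between WT and Δ(177-191) cells it differed for Ctsb (-0.50), Ctsd (-1.03) and Ctss (-1.04). Of these, the calls of Ctsa in all 3 comparisons, and of Ctsd and Ctsz between WT and K298E, were lost in some fits without 1 array or replicate number.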

How the results depend on the processing

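Of 264 counts of cathepsin genes recomputed under alternatives that kept all arrays, 236 stayed within 1.5 times the reported count and 28 did not. Genes lower in WT than in vector cells at 12 h, reported as 1, were 0 with 12 or 32 added to the signal, no filter, quantile normalization, median centring or the compared arrays alone, and 2 with every probe set of a gene. Genes lower in vector cells at 12 h than at 0 h, reported as 2, were 1 with no filter or no variance trend and 0 with median centring. Genes higher relative to vector at 12 h in K298E cells, reported as 1, were 2 with a filter at 100, quantile normalization, array weights or the compared arrays alone, and 0 with median centring. In WT cells, reported as 0, they were 1 with quantile normalization, array weights, the compared arrays alone or every probe set. Genes higher in WT than in vector cells at 0 h, reported as 2, were 4 with a filter at 100 or every probe set and 0 with median centring. In K298E cells at 0 h, reported as 1, they were 0 with median centring or the compared arrays alone. At 12 h in K298E cells the 4 higher became 1 with median centring, and the 0 lower became 1 with every probe set. Between WT and K298E the 1 higher and 3 lower became 0 and 1 with median centring. The causes were not tested.

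Median centring moved the median of all genes by over 0.1 in 7 of the comparisons recomputed with it. Centred medians were 0.14 for the relative change in WT at 12 h and 0.11 at 6 h, -0.15 for that in Δ(177-191) at 9 h, 0.10 for WT minus K298E, 0.17 for WT minus Δ(177-191), 0.13 for WT at 12 h against 0 h and -0.14 for WT at 0 h. The uncentred medians were -0.03, -0.04, -0.02, -0.04, -0.03, -0.07 and 0.01. No call of the 5 representative probe sets changed sign under a scaling. Without 1 array or replicate number, genes higher ranged over 0 to 2 for K298E relative to vector, 2 to 3 for Δ(177-191) relative to vector, 0 to 3 for WT at 0 h, 0 to 1 for K298E at 0 h, 3 to 4 for WT and for K298E at 12 h, and 0 to 1 for WT minus K298E. Genes lower ranged over 1 to 3 for WT minus K298E, 0 to 1 for WT at 12 h and 0 to 1 for vector cells.

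The sign turned on dim second probe sets. Ctsa on 1458466_at gave -0.23 in Δ(177-191) relative to vector at 12 h, -0.066 for Δ(177-191) at 0 h, and -0.29, -0.032 and -0.30 for WT, K298E and Δ(177-191) at 12 h against vector. Ctsb on 1444987_at gave -0.42 for Δ(177-191) at 0 h, and -1.38, -1.50 and -0.15 at 12 h for WT, K298E and Δ(177-191). Ctsb on 1417491_at gave 0.11 for WT minus Δ(177-191) and -0.42 in Δ(177-191) cells at 12 h against 0 h. Fits with a replicate block gave the reported count in all 24 counts, among them 3 higher in Δ(177-191) relative to vector and 3 lower in WT minus K298E. Replicate numbers correlated over 0.1 in every pair for 7 of 120 pairs of groups, so they were not taken to pair the arrays. Signals near the filter, such as Ctss outside Δ(177-191) cells, limit the smallest change that can be seen.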
